A study of Mus musculus with 8 samples.

Results

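Matrix metalloproteinases (MMPs), the ADAMTS proteases, their inhibitors (TIMPs) and the ADAMTS-like proteins were examined in bone marrow mesenchymal stem/progenitor cells (MSPCs), as 40 genes picked by symbol out of the 52636 genes counted. They comprised 13 Mmp genes, 4 Timp genes, 17 Adamts genes and 6 genes for ADAMTS-like proteins, among which Papln (papilin) was counted. MSPCs were collected from 4 CTR mice (Flk2-cre+ Cxcr4fl/+) and 4 cKO mice (Flk2-cre+ Cxcr4fl/fl), all on the C57BL/6 background and 6 weeks old by their labels (the methods give an older range for the mice of the study), and 1 library was made per mouse. The comparison asks whether niche cells change when hematopoietic progenitors lose CXCR4, the receptor that retains them in marrow. The control mice also carried the Cre transgene and 1 floxed Cxcr4 allele. Cre was driven by Flk2 regulatory sequences, which are active in hematopoietic multipotent progenitors and their progeny, and whether Cxcr4 was intact in the sorted cells was not tested. All mice carried a GFP reporter in the Kitl locus, and the marrow had been digested with collagenase before cells lacking CD45, Ter119, CD31 and CD144 and bearing PDGFRα and GFP were sorted.

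MMPs and ADAMTS proteases are zinc enzymes, made as inactive proenzymes, that cut collagens, proteoglycans and other proteins of the extracellular matrix. TIMPs block them by filling the active site, and ADAMTS-like proteins resemble ADAMTS enzymes but lack the protease domain. In bone, collagen-cutting MMPs act in the turnover of matrix by cells of the osteoblast, chondrocyte and osteoclast lineages, and stromal cells around sinusoids lie in a matrix that these enzymes can remodel.

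The libraries held 31047344 to 38216877 counts, and the test covered the 14598 genes counted at least once in each of them. MSPC markers were abundant, since Lepr averaged 2115 and Cxcl12 18423 TPM (transcripts per 1000000, from counts divided by exonic length), and the 7 endothelial markers together reached at most 5.59 CPM (counts per 1000000, library sizes scaled by TMM). Each sample title carries a number, which is 26 to 32 in replicates 2 and 4 of both genotypes (CTR2, CTR4, cKO2, cKO4) and 67 to 86 in replicates 1 and 3 (CTR1, CTR3, cKO1, cKO3). What the number stands for is not given in the labels, and each range holds 2 libraries of each genotype.

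Of the 40 genes, 32 had a count in every library and 8 did not. Mmp13, which encodes collagenase-3, was the most abundant of all 40, with a mean of 2095 TPM and rank 51 among all genes of the table. Its level per library was 2242, 2232, 1803 and 2218 TPM in CTR1 to CTR4 and 2673, 2664, 1310 and 1623 TPM in cKO1 to cKO4. Mmp13 lay above the next gene, Timp2, in 8 of 8 libraries, and it supplied 59.1% to 74.1% of the summed TPM of the 13 Mmp genes. The CTR values fell inside the cKO range, which was the wider of the pair.

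Mmp13 (ENSMUSG00000050578.10, chr9:7272514-7283331, plus strand, GRCm38) stands at one end of a row of 10 Mmp genes that spans 427 kb. Its neighbors were nearly silent. Mmp12, Mmp3, Mmp8 and Mmp27 had at most 15 counts in any library, and Mmp1b, Mmp1a, Mmp10, Mmp20 and Mmp7 had 0 counts in every library, which allows up to 3 counts, or 0.0966 CPM in the smallest library. Mmp3, the stromelysin gene that is the only other one of the 40 in the row, had 3 counts in CTR1 and 0 in the other libraries.

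**Figure D1:**
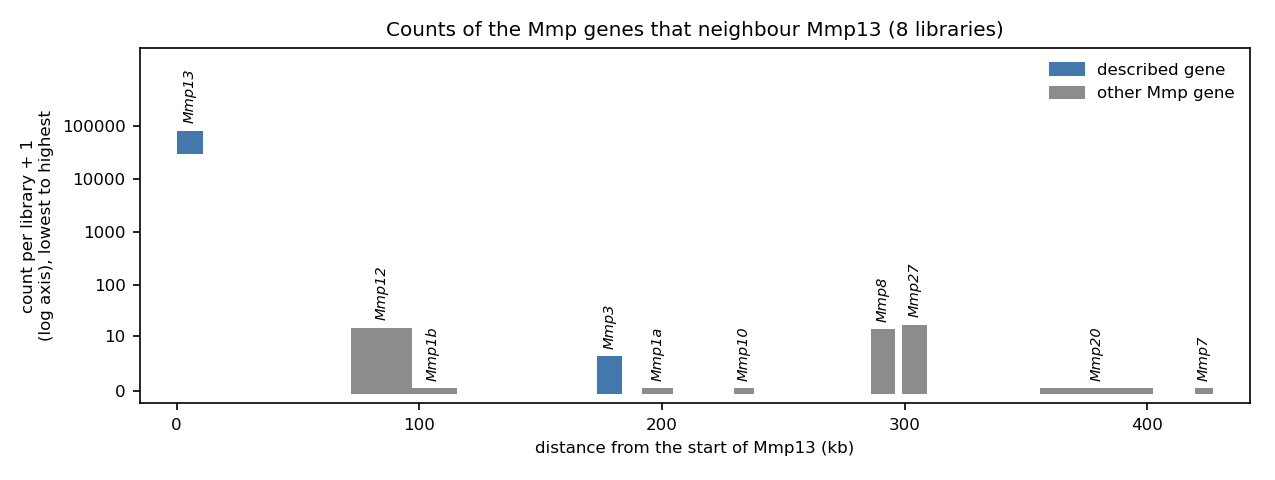
Lowest to highest count per library (log axis, 1 added) of 10 neighboring Mmp genes, drawn at their distance in kb from the start of Mmp13. Mmp13 had 34598 to 71903 counts, and no other gene of the row exceeded 15.

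The 250 bases before the start of Mmp13 and of Mmp3 are printed because the pair shares a row of genes and short sequence motifs but differs in level, and those of Adamtsl4 because this gene was the only one whose genotypes did not overlap (described further on). The sequences are from RefSeq on GRCm38.p6 and read 5′ to 3′ on the strand of the gene, with matches to the searched motifs in capitals. They lie at chr9:7272264-7272513 (plus strand), chr9:7445572-7445821 (plus strand) and chr3:95687918-95688167 (minus strand).
Mmp13: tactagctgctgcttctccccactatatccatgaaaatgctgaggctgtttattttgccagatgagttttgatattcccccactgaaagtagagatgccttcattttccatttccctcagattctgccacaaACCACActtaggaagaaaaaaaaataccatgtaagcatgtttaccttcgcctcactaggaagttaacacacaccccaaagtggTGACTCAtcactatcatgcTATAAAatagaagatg
Mmp3: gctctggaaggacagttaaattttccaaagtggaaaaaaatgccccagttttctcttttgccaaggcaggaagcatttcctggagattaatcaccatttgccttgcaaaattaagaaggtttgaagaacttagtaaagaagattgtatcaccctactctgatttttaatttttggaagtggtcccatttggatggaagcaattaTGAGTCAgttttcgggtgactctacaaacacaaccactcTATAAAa
Adamtsl4: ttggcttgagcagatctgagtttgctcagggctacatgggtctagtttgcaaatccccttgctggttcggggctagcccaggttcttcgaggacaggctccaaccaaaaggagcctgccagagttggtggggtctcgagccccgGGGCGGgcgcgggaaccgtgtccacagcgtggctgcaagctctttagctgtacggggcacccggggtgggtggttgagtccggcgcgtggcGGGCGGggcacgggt

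Windows of this length were matched for 25 of the 40 genes, and 4 motifs were searched, none of which overlaps another in the windows shown. The motif of the AP-1 factors, TGAGTCA on either strand, occurred in the windows of 2 of the 25 genes, Mmp13 and Mmp3, and in 4.46% of all windows. The letters of the TATA box, TATAAA on the strand of the gene, stood in those of Mmp13, Mmp3, Adamts1 and Adamtsl2 (7.59% of all windows). They began at positions -16, -7, -32 and -30 from the annotated start, and whether they act as TATA boxes was not tested. The RUNX motif, TGTGGT on either strand, stood in the windows of Mmp13, Mmp14 and Mmp23 (14.0% of all). The GC box, GGGCGG on either strand, was present in 19 of the 25, against 32.7% of all windows, and Adamtsl4 held it 2 times. Apart from Mmp13 and Mmp3, the windows held 53.6% (Timp4) to 80% (Adamtsl3) GC, above the median of 52.4% over all windows. The part of base composition in the GC box share was not tested. Bases just after the window were found in an annotated transcript of the gene for 22 of the 26 windows of these 25 genes. AP-1 and TATA letters were thus shared by the most abundant Mmp gene and by one with counts in a single library.

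Below Mmp13, Mmp14 and Mmp23 led the metalloproteinases. Mmp14, a membrane-bound collagenase that also activates the Mmp2 proenzyme, had 320, 366, 324 and 356 TPM in CTR1 to CTR4 and 371, 388, 334 and 375 TPM in cKO1 to cKO4. Mmp23, which is anchored to membranes through its amino-terminal end, had 291, 288, 282 and 316 TPM in CTR and 311, 282, 322 and 296 TPM in cKO. Both were among the steadiest of the 40 genes, with coefficients of variation over the 8 libraries of 6.47% and 5.86% in CPM. Mmp11, a stromelysin activated by furin inside the cell, had 116, 64.0, 99.2 and 122 TPM in CTR and 176, 123, 121 and 122 TPM in cKO. Mmp2, a gelatinase, had 52.1, 83.3, 61.0 and 73.2 TPM in CTR and 70.4, 61.8, 41.0 and 60.3 TPM in cKO. The other Mmp genes were lower. Mmp19, a secreted enzyme that cuts basement membrane proteins, averaged 33.7 TPM, the membrane-type enzymes Mmp24, Mmp17, Mmp16 and Mmp15 averaged 19.6, 15.2, 2.60 and 2.21 TPM, and Mmp28 (epilysin) and Mmp9 (the second gelatinase) averaged 7.36 and 4.84 TPM.

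Among the inhibitors, Timp2 was the most abundant and supplied 79.1% to 88.6% of the summed TPM of the 4 genes. Timp2, which also takes part in the activation of Mmp2 by Mmp14, had 807, 788, 760 and 954 TPM in CTR1 to CTR4 and 944, 862, 797 and 831 TPM in cKO1 to cKO4. Timp1, a soluble inhibitor, had 109, 120, 100.4 and 87.7 TPM in CTR and 58.0, 95.3, 91.9 and 83.1 TPM in cKO. The matrix-bound inhibitor Timp3, which also blocks ADAMTS proteases, averaged 44.1 TPM and Timp4 averaged 40.7 TPM.

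Adamts2, which removes the amino-terminal propeptide of fibrillar procollagens, was the leading ADAMTS gene and supplied 64.2% to 75.1% of the family's summed TPM. Its level was 756, 785, 799 and 807 TPM in CTR1 to CTR4 and 694, 788, 699 and 726 TPM in cKO1 to cKO4. The related propeptidase genes Adamts14 and Adamts3 averaged 49.8 and 2.79 TPM. Of the proteoglycan-cutting enzymes, Adamts1 had 93.4, 203, 141 and 130 TPM in CTR and 103, 131, 80.3 and 77.5 TPM in cKO, and Adamts4 had 47.1, 63.7, 49.7 and 55.6 TPM in CTR and 76.7, 57.1, 53.8 and 49.5 TPM in cKO. Adamts5, Adamts15 and Adamts9 of the same group averaged 15.9, 12.6 and 12.1 TPM. Aggrecan (Acan), the cartilage proteoglycan after which several of these enzymes are called aggrecanases, had 0 counts in every library. Adamts10, a protein of fibrillin microfibrils, averaged 23.4 TPM, and Adamts12 and Adamts7, which cut cartilage oligomeric matrix protein, averaged 6.60 and 3.75 TPM.

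The ADAMTS-like genes summed to 59.5 to 105 TPM, far below the other families. Adamtsl4, which binds fibrillin microfibrils, led on average with 34.4 TPM, ahead of Adamtsl3 with 30.8, Adamtsl5 with 12.4 and Adamtsl1 with 3.92 TPM. In the order of mean TPM, the ranges of neighboring genes overlapped for all pairs from Adamts1 downward as well as for Timp2 with Adamts2 and Mmp14 with Mmp23, and no overlap was seen between Mmp13 and Timp2, Adamts2 and Mmp14, or Mmp23 and Adamts1.

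The 8 genes without a count in every library were Mmp3, Adamts6, Adamts8, Adamts16, Adamts19, Adamts20, Adamtsl2 and Papln. Adamts6, a relative of Adamts10, had 45 counts in CTR2, 27 in cKO1, 12 in cKO2, 32 in cKO4 and 0 in the other 4 libraries, which lie in both genotypes. Adamts8 had 13 counts in CTR2, Adamts16 had 9 in cKO4, Papln had 5 in CTR4 and Adamts20 had 3 in cKO2, each with 0 elsewhere. Adamts19 and Adamtsl2 had 0 counts in every library. No difference between genotypes was detectable for these genes at this depth.

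**Figure D2:**
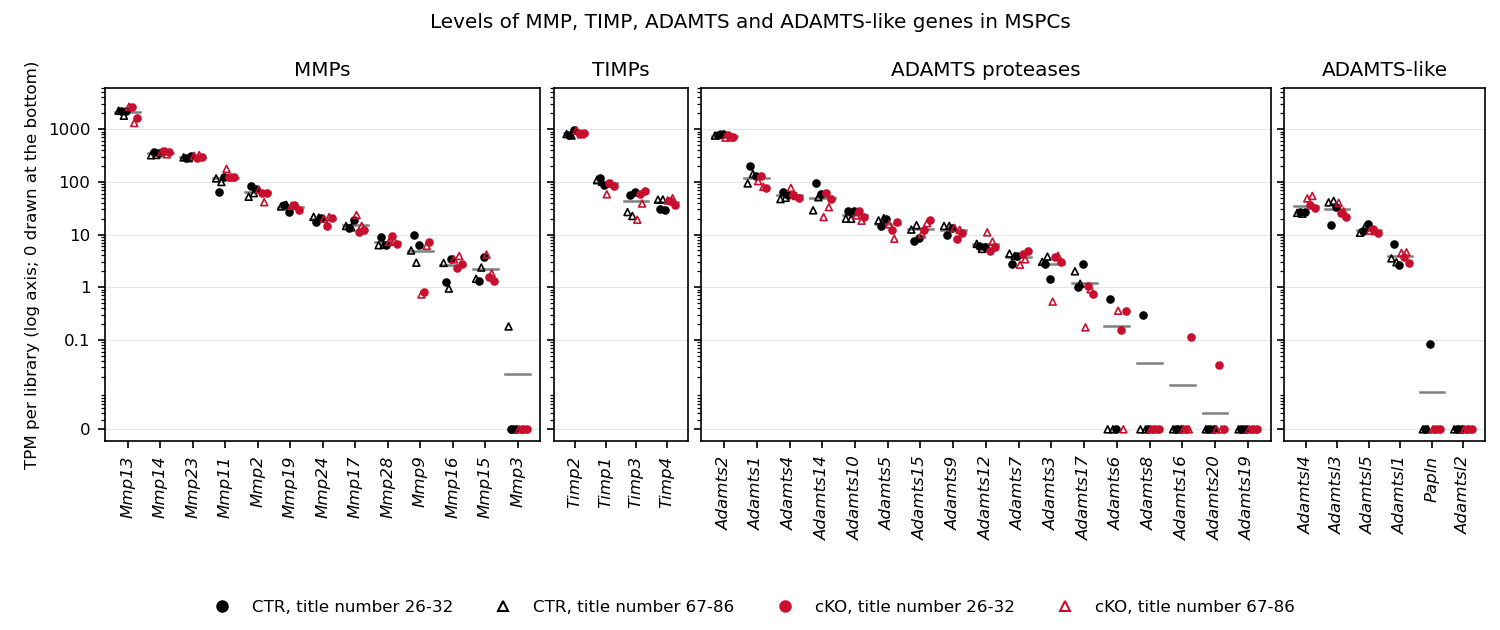
TPM of each of the 40 genes in each library on a log axis, grouped by family and ordered by mean (gray bars), with values of 0 drawn at the bottom. Mmp13, Timp2 and Adamts2 lead their families, and 8 genes reach 0 in at least 1 library.

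**Figure D3:**
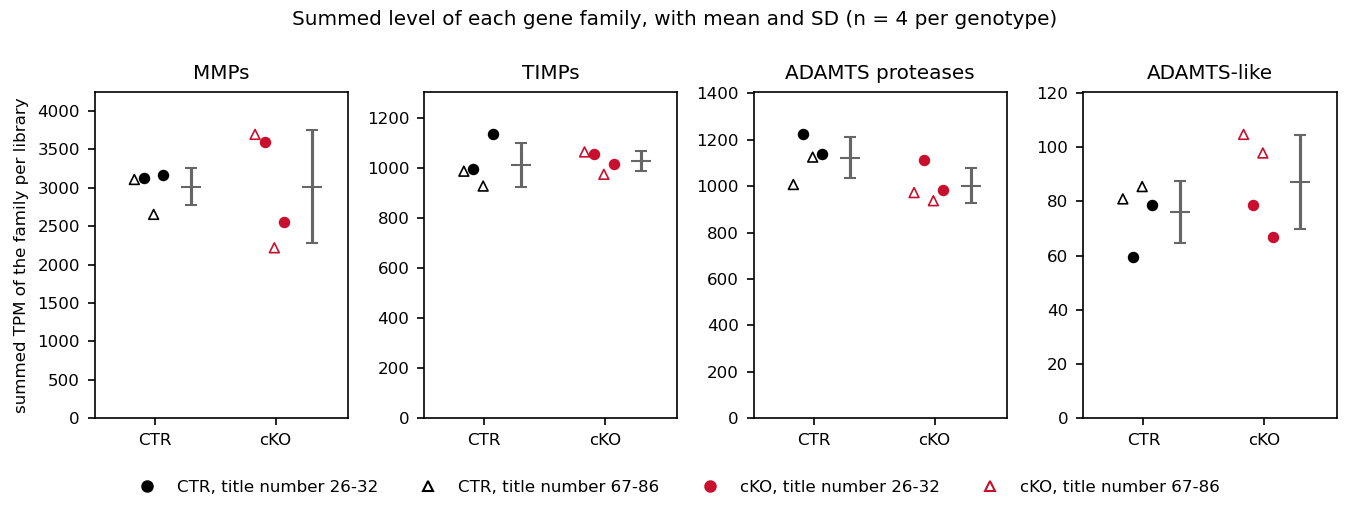
Summed TPM of each family per library, with the mean and SD of each genotype (n = 4). The Mmp sum ran from 2218 to 3695 TPM in cKO and from 2653 to 3170 TPM in CTR, and the genotypes overlap in all 4 families.

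The summed levels of the families overlapped between genotypes. The Mmp genes summed to 3013 ± 241 TPM in CTR and 3016 ± 740 TPM in cKO (SD, n = 4 each), and the Timp genes to 1012 ± 87.7 and 1029 ± 41.4 TPM. Adamts genes summed to 1123 ± 88.8 TPM in CTR and 1001 ± 76.1 TPM in cKO, and the ADAMTS-like genes to 76.1 ± 11.4 and 87.0 ± 17.3 TPM. The cKO libraries were split in the Mmp sum, as cKO1 and cKO2 held 3695 and 3595 TPM and cKO3 and cKO4 held 2218 and 2556 TPM, and this split was that of Mmp13. In the same libraries the 10 osteoblast markers summed to 10527, 15618, 13664 and 15948 CPM in cKO1 to cKO4. Ibsp alone held 8310, 13798, 10368 and 13308 CPM of these sums. The markers did not run in 1 order, as Alpl had 438, 253, 307 and 305 CPM, and Bglap had at most 3.97 CPM. The part of osteoblast-lineage cells in the Mmp13 levels was not tested.

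No gene of the 32 tested passed the main test between genotypes. With edgeR's quasi-likelihood test and Benjamini-Hochberg adjustment over all genes tested, 0 of the 32 genes had an adjusted p under 0.05, as did 0% of the 14598 genes. At an unadjusted p under 0.05 there were 3 of 32, or 9.38%, against 4.43% of all genes tested. They were Adamtsl4, higher in cKO (as were 2.35% of all genes), and Adamts1 and Adamts17, lower in cKO (2.08% of all genes). Limma-voom and DESeq2's likelihood ratio test without a further term also called 0 of the 32. With the title number range as a term, DESeq2's likelihood ratio test called 1 of the 32, Adamtsl4 (adjusted p = 0.0108, described further on). It called 47 of the 14598 genes tested. The median log2 fold change, cKO minus CTR, was 0.01 over the 32 genes and -0.001 over all genes, and 21 of the 32 were within 0.25 of 0. By sign, 18 genes were above 0 and 14 below. Among the families, 8 of 12 Mmp, 3 of 4 Timp, 5 of 12 Adamts and 2 of 4 ADAMTS-like genes were above 0. Fewer cells of a type in a sorted sample and less RNA per cell cannot be told apart in these bulk data.

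Of the 10 most abundant genes, Adamts1 and Mmp11 are described further on, and the other 8 had the following values. Mmp13 averaged 1684 ± 161 CPM in CTR against 1639 ± 528 CPM in cKO (SD, n = 4), with a log2 fold change of -0.04 and a standard error of 0.21. Timp2 (log2 fold change 0.06, standard error 0.10), Mmp14 (0.11, 0.09), Mmp23 (0.05, 0.09) and Adamts2 (-0.11, 0.09) stayed near 0 with the smallest errors of the set. Timp1 had a log2 fold change of -0.34 and Mmp2 of -0.20, both with a standard error of 0.18, and Adamts4 had 0.14 with 0.15. All of these had an adjusted p of 0.999 with edgeR.

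Adamtsl4 was the only gene of the 32 whose genotypes did not overlap. It had 32.4, 32.7, 31.3 and 32.8 CPM in CTR1 to CTR4 against 60.4, 44.1, 68.9 and 41.3 CPM in cKO1 to cKO4. Every cKO library lay above every CTR library, and the CTR values differed by less than 2 CPM while those of cKO spread widely. The mean in cKO was 1.66-fold that in CTR, with a log2 fold change of 0.73 and a standard error of 0.17 (edgeR, unadjusted p = 0.0013, adjusted p = 0.999). An exact permutation test of mean log2 CPM gave p = 0.0286 (two-sided), the smallest value that the 70 assignments of the libraries allow. One gene of 32 is 3.13%, and 2.62% of all genes tested did not overlap between genotypes, so the share was near that of all genes. Within title numbers 26 to 32 the difference of mean log2 CPM was 0.38, and within 67 to 86 it was 1.02 (interaction coefficient 0.64, standard error 0.21, adjusted p of 1.00 with edgeR, unadjusted p = 0.0173). When the title number range was a term in a likelihood ratio test by DESeq2, the adjusted p of Adamtsl4 was 0.0108. It was then the only one of the 32 genes among the 47 genes called, out of 14598 tested. Under the other alternatives its adjusted p lay between 0.0528 (DESeq2 without that term) and 1.00. Adamtsl4 (ENSMUSG00000015850.11) lies at chr3:95676201-95687917 on the minus strand.

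The other genes with large positive values were Mmp16 and Mmp11. Mmp16, which encodes a membrane-type enzyme, had 7.51, 3.22, 2.45 and 8.59 CPM in CTR against 8.70, 5.73, 10.3 and 7.26 CPM in cKO, with overlapping genotypes and 79 to 335 counts per library (log2 fold change 0.55, standard error 0.42, adjusted p = 0.999). Leaving out each library in turn gave Mmp16 log2 fold changes of 0.31 (without CTR3) to 0.86 (without CTR4). Mmp11 had 96.9, 52.8, 82.8 and 98.4 CPM in CTR against 146, 98.1, 102 and 103 CPM in cKO. Its groups met at a single point, as CTR4 lay just above cKO2 (log2 fold change 0.44, standard error 0.20, adjusted p = 0.999). The lowest CTR library and the highest cKO library, CTR2 and cKO1, stood away from the rest. Without CTR2 the log2 fold change of Mmp11 was 0.27, and without cKO1 it was 0.29.

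At the other end were Adamts17, Mmp9 and Adamts1. Adamts17, another protease linked to fibrillin microfibrils, had 4.66, 2.30, 2.70 and 6.21 CPM in CTR against 0.398, 2.31, 2.15 and 1.72 CPM in cKO. The groups overlapped through CTR2 and cKO2, and the lowest library, cKO1, rested on 13 counts (log2 fold change -1.27, standard error 0.54, unadjusted p = 0.0403, adjusted p = 0.999 with edgeR). The unadjusted edgeR p of Adamts17 was above 0.05 without CTR1, CTR4, cKO1 or cKO4, at 0.0549 to 0.123. Adamts1 had 148, 320, 225 and 200.4 CPM in CTR against 162, 200.6, 129 and 125 CPM in cKO. CTR1 and CTR4 lay inside the cKO range, and CTR2 was the highest library (log2 fold change -0.53, standard error 0.23, unadjusted p = 0.0422, adjusted p = 0.999 with edgeR). Without CTR2 the log2 fold change of Adamts1 was -0.32 (edgeR unadjusted p = 0.137), and without CTR3, cKO1, cKO3 or cKO4 the unadjusted p was 0.0573 to 0.108. Adamts5, which neighbors Adamts1 at a distance of 53.1 kb on chromosome 16 and also cuts proteoglycans, had a log2 fold change of -0.45 and a standard error of 0.21 (adjusted p = 0.999 with edgeR). The proteoglycan-cutting enzymes did not share a direction, as Adamts9 had a log2 fold change of -0.22, Adamts4 of 0.14 and Adamts15 of 0.41.

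Mmp9, the gelatinase abundant in neutrophils and osteoclasts, had 5.27, 10.1, 3.11 and 6.42 CPM in CTR against 0.766, 0.827, 6.55 and 7.83 CPM in cKO. The cKO libraries were split, as cKO1 and cKO2 lay below every CTR library and cKO3 and cKO4 inside the CTR range (log2 fold change -0.64, standard error 0.73, adjusted p = 0.999 with edgeR). Leaving out each library in turn gave Mmp9 log2 fold changes of -1.20 (without cKO4) to -0.30 (without cKO1). The 10 neutrophil markers summed to 139, 43.3, 29.4 and 26.9 CPM in CTR against 48.0, 156, 81.5 and 45.9 CPM in cKO, highest in cKO2 and CTR1. None of the 10 was at 0 in every library. Of the 9 osteoclast and macrophage markers, the osteoclast genes Ocstamp, Dcstamp, Calcr and Atp6v0d2 had 0 counts in every library. Acp5, also an osteoclast gene of this list, had 56 to 270 counts per library. It had 1.81, 8.28, 2.92 and 2.84 CPM in CTR against 3.55, 2.37, 1.78 and 6.29 CPM in cKO. Acp5 and Mmp9 were both highest in CTR2 among CTR and in cKO4 among cKO. The sum of the list was 11.6 to 18.7 CPM in CTR and 16.05 to 24.7 CPM in cKO. The part of these cells in the Mmp9 levels was not tested.

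Adding the title number range as a term left 0 of the 32 genes past the threshold with edgeR, and 0 of all genes tested. The sign of the genotype difference was the same within both ranges for 19 of the 32 genes. For the difference between genotypes to differ between ranges, 0 of 32 passed the test (0% of all genes). At an unadjusted p under 0.05 were Adamtsl4, Adamts15 and Mmp17, or 9.38% against 3.44% of all genes tested. The coefficient was positive for Adamtsl4 and Mmp17 (1.62% of all genes) and negative for Adamts15 (1.82% of all genes). Adamts15, a proteoglycan-cutting enzyme, had a genotype difference of 0.93 on the log2 scale within 26 to 32 and -0.08 within 67 to 86. Mmp17 had -0.43 and 0.39.

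**Figure D4:**
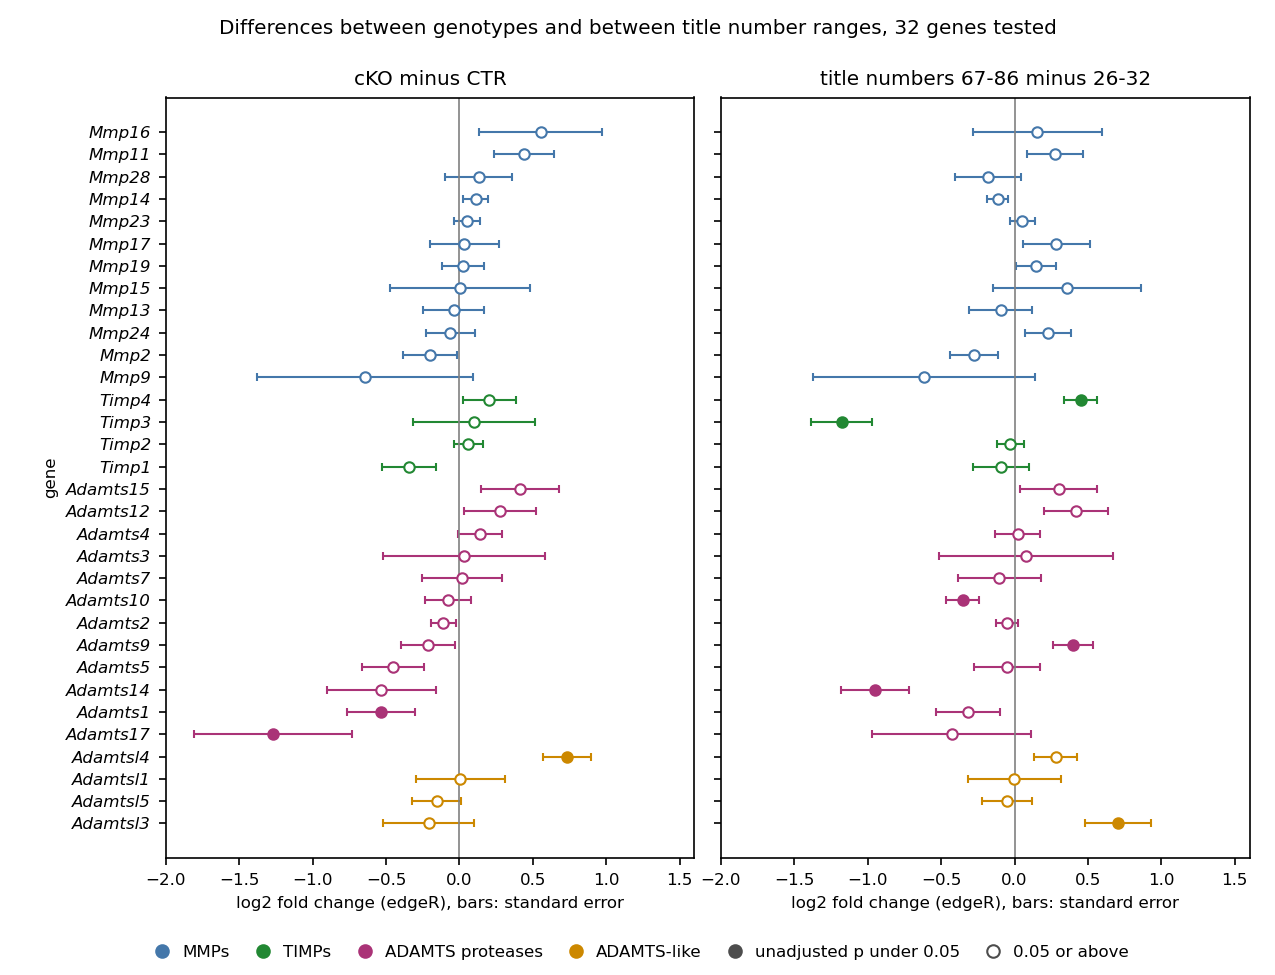
Log2 fold changes with standard errors from edgeR for the 32 genes tested, between genotypes (left) and between title number ranges (right), colored by family and filled where the unadjusted p was under 0.05. Adamtsl4 at 0.73 and Adamts17 at -1.27 lie farthest out by genotype, and Timp3 at -1.18 by title number.

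Between the title number ranges the inhibitors Timp3 and Timp4 did not overlap, though no gene of the 32 passed the threshold. With genotype as a covariate, 0 of the 32 genes had an adjusted p under 0.05 in edgeR, against 0.0137% of all genes tested (2 genes, neither of the 40). At an unadjusted p under 0.05 there were 6 of 32, or 18.8%, against 11.6% of all genes, with 3 higher (5.1% of all genes) and 3 lower (6.5% of all genes) in the range 67 to 86. These 6 were chosen for description after their values were seen. DESeq2's likelihood ratio test called 3 of the 32, all among these 6 (Timp3, Adamts14 and Timp4, adjusted p of 2.6e-05, 0.0060 and 0.0329). It called 342 of the 14598 genes tested.

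Timp3 had the largest difference of the 32. It had 138, 154, 135 and 164 CPM in the libraries of range 26 to 32 (CTR2, CTR4, cKO2 and cKO4) and 65.1, 55.0, 46.2 and 96.0 CPM in those of range 67 to 86 (CTR1, CTR3, cKO1 and cKO3). The ranges did not overlap, and the log2 fold change, 67 to 86 minus 26 to 32, was -1.18 with a standard error of 0.21 (edgeR, unadjusted p = 0.0003, adjusted p = 0.112). It was -1.28 within CTR and -1.16 within cKO. Without cKO3, the highest library of its range, the adjusted p was 0.0460 and the log2 fold change -1.44. Under the remaining alternatives with edgeR or limma-voom the adjusted p lay between 0.0945 and 0.273. The exact permutation test gave p = 0.0286, again the smallest value possible. Between genotypes, in contrast, Timp3 had a log2 fold change of 0.10 with a standard error of 0.41.

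Timp3 (ENSMUSG00000020044.13, chr10:86300372-86349506, plus strand) lies inside Syn3, a synapsin gene on the opposite strand, and 21.3% of the exonic bases of Timp3 are also exonic in Syn3. Syn3 had 394 to 1740 counts and a log2 fold change of -1.24 (standard error 0.22) in the same direction. Whether the authors counted reads by strand is not stated, so reads of Timp3 and Syn3 cannot be told apart with certainty. The smooth muscle and pericyte markers were also higher in range 26 to 32 for 5 of 6 genes, and their sum was 28.7 to 67.9 CPM there and 13.5 to 30.2 CPM in range 67 to 86. Rgs5, a pericyte gene among them, had a log2 fold change of -1.49 (standard error 0.23, edgeR unadjusted p = 0.0001, adjusted p = 0.112). The erythroid and lymphoid markers summed to 52.1 to 118 CPM in range 26 to 32 and 139 to 197 CPM in range 67 to 86. The part of these cells in the title number differences was not tested.

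Timp4, the other inhibitor without overlap, went the opposite way. It had 52.7, 50.1, 74.0 and 66.2 CPM in CTR2, CTR4, cKO2 and cKO4 and 81.1, 81.9, 78.0 and 87.5 CPM in CTR1, CTR3, cKO1 and cKO3 (log2 fold change 0.45, standard error 0.11, unadjusted p = 0.0031, adjusted p = 0.208 with edgeR). All libraries of range 67 to 86 lay above those of 26 to 32, by a margin that was wide in CTR and narrow in cKO. Timp3 and Timp4 made 6.25% of the 32 genes, near the 6.87% of all genes tested whose ranges did not overlap. Like Timp3, Timp4 lies within a synapsin gene (Syn2) on the other strand, and Timp1 within Syn1, but they share 1.53% and 0% of their exonic bases.

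Adamts14 had 148, 90.2, 90.2 and 75.7 CPM in CTR2, CTR4, cKO2 and cKO4 and 44.9, 79.7, 33.2 and 52.2 CPM in the libraries of range 67 to 86. Only CTR3 and cKO4 crossed between the ranges (log2 fold change -0.95, standard error 0.23, adjusted p = 0.208 with edgeR). By genotype its log2 fold change was -0.53 with a standard error of 0.37. Adamtsl3, a matrix protein without protease domain, was at 34.2 to 74.1 CPM in range 26 to 32 and 64.8 to 102 CPM in range 67 to 86 (log2 fold change 0.71, standard error 0.23, adjusted p = 0.302). Adamts10 and Adamts9 had log2 fold changes of -0.35 (standard error 0.11) and 0.40 (standard error 0.13), with adjusted p of 0.302 and 0.317 in edgeR. The sign of the title number difference was the same within both genotypes for 18 of the 32 genes.

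**Figure D5:**
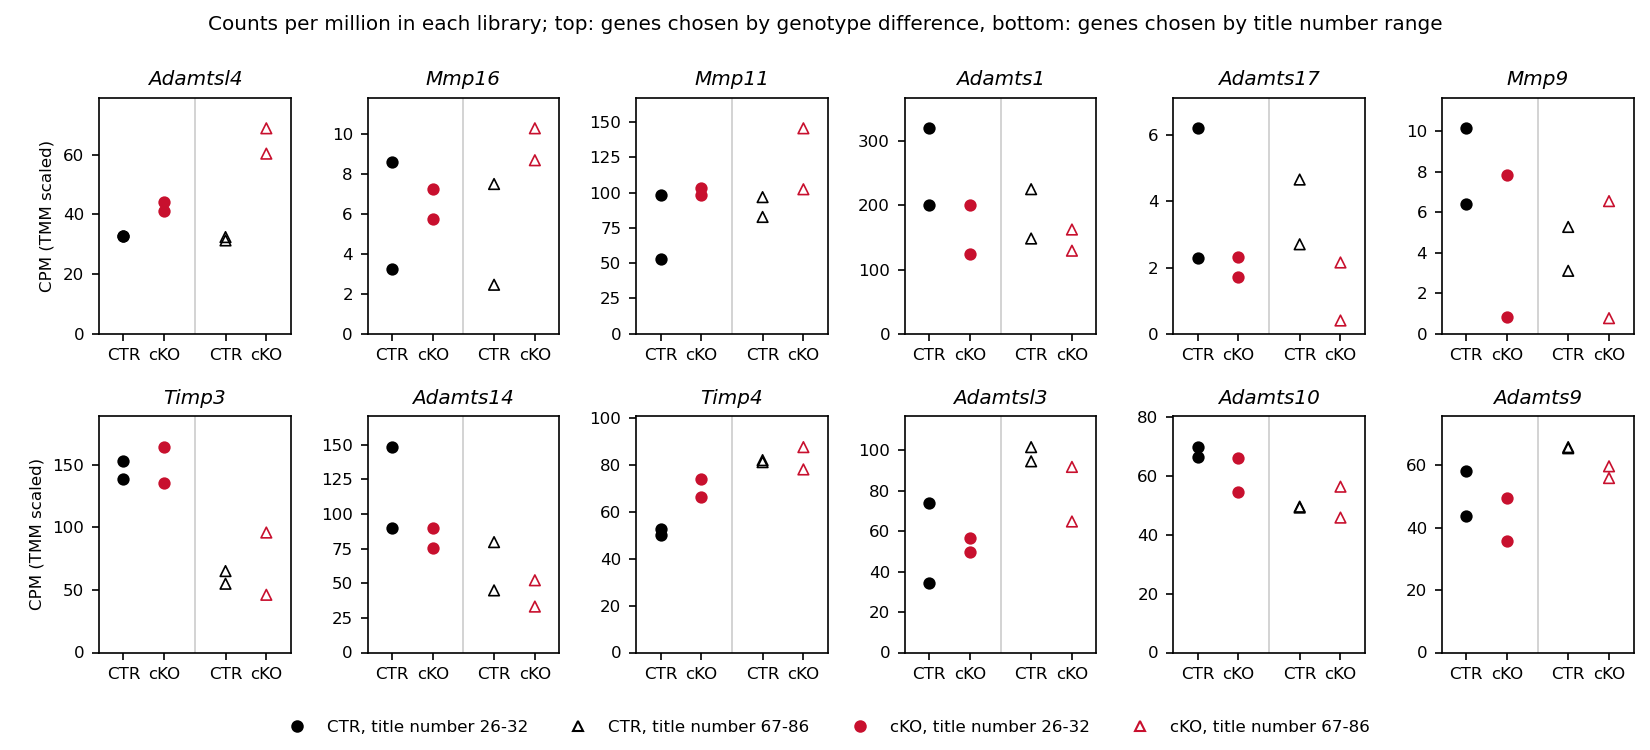
CPM in each library for 6 genes chosen by genotype (top) and 6 chosen by title number range (bottom), with range 26 to 32 left and 67 to 86 right of the line in each panel. Adamtsl4 is higher in all cKO libraries within both ranges, and Timp3 is higher in range 26 to 32 in both genotypes.

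Levels of the 32 genes varied between libraries about as much as those of other genes or slightly more. Their median coefficient of variation was 23.9%, against 20.6% over all genes tested, and among genes of at least 10 CPM it was 20.0% over 25 of them and 15.7% over 9406 genes. At the steady end were Adamts2 (5.08%), Mmp23 and Mmp14. Mmp9 (65.2%), Adamts17 (64.5%) and Mmp15 (50.8%) varied most, with at most 331 counts in any library, while Adamts14 (46.7%) and Timp3 (44.1%) did so with no fewer than 1083 and 1507 counts per library. Exonic bases were also shared with a gene on the other strand for Mmp19 (22.3%, Tmem198b), Mmp24 (13.6%, BC029722) and Mmp28 (12.0%), where Tmem198b had 596 to 1028 counts, BC029722 1838 to 2576 and the gene opposite Mmp28 at most 15.

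The other genes of the pathway gave a like picture. Of 71 genes in 7 lists, 42 were tested and 0 passed the threshold by genotype. Their median log2 fold change was 0.01, with 22 above 0 and 20 below. Of 12 further Mmp and Adamts genes, 0 had a count in every library. Among 8 ADAM proteases, 5 genes for proenzyme activation and the plasminogen system, 7 other inhibitors, clearance receptors and inducers, 3 for procollagen processing, 7 other matrix proteases and 12 matrix substrates, only the last held genes at an unadjusted p under 0.05 by genotype, namely Dcn and Comp. Dcn (decorin), a collagen-binding proteoglycan, averaged 379 ± 52.4 CPM in CTR against 299 ± 57.4 CPM in cKO (SD, n = 4), with a log2 fold change of -0.34 and a standard error of 0.15. Comp, a substrate of Adamts7 and Adamts12, averaged 73.3 ± 27.6 CPM in CTR against 47.0 ± 10.6 CPM in cKO (log2 fold change -0.64, standard error 0.27). Both had an adjusted p of 0.999 with edgeR, and 2 of 42 is 4.76%, near the 4.43% of all genes.

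Several partners of the enzymes were abundant in the same cells. Furin, which cuts the prodomain of Mmp11 and Mmp14, averaged 100.3 TPM, and Bsg (CD147), an inducer of MMPs, averaged 1135 TPM. Reck, a membrane-anchored MMP inhibitor, averaged 53.3 TPM, the clearance receptor Lrp1 242 TPM, and Ctsk (cathepsin K), a collagen-cutting protease, 457 TPM. Of the plasminogen system, Plau (urokinase) had 0 counts in every library, whereas its inhibitor Serpine2 averaged 3429 TPM. By title number 0 of the 42 passed the threshold in edgeR and 4 (9.52%, against 11.6% of all genes) had an unadjusted p under 0.05.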

How the data were processed

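RNA of sorted MSPCs was selected for poly(A) and sequenced as paired reads. Per the methods and the labels, reads were trimmed, aligned by the authors to GRCm38 (HISAT2) and assigned to genes (HTSeq), and the deposited table holds the resulting raw counts, not normalized. Whether strand was used in counting is not given in the sources used here. Of 52636 identifiers, 52403 were matched to a symbol and 233 were not. Coordinates and exonic lengths are from GENCODE M21 on GRCm38, which is not the release the methods name.

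After TMM scaling, the quasi-likelihood test of edgeR 4.0.16 (R 4.3.3) was run on genes counted at least once in each library, with p-values adjusted over all of them by Benjamini-Hochberg (threshold 0.05), by genotype without covariates, by title number range with genotype as a covariate, and for their interaction. The study corrected for a batch that the labels do not name. Within-range differences and exact permutation tests used log2 CPM with a prior count of 2. The fits were tested on simulated data, where part of the genes given a change were called, and alternatives included DESeq2 1.42.0 and limma 3.58.1.

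Values in every library are given for the 10 genes with the highest mean TPM, the 3 largest positive and 3 largest negative fold changes by genotype, genes at an unadjusted p under 0.05 for genotype, genes past the threshold for the title number (at most 8, of which there were 0), and genes without a count in every library that reached 30 counts. The genes and lists were chosen with earlier results of these data known.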

Additional observations from a re-analysis of the deposited data

Results flagged for a closer look

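In 64 groups of 4 libraries (32 genes in each genotype), the gap between an extreme library and its nearest neighbor was divided by the range of the group, and 3 groups exceeded Dixon's critical value at the 95% level. Chance flags about 1 group in 20, or 3.2 groups here. Mmp11 stood out in cKO with a ratio of 0.894, since cKO1 had 146 CPM and the others 98.1 to 103 CPM. Mmp19 did so in cKO with a ratio of 0.940, as cKO4 had 31.5 CPM and the others 37.0 to 37.3 CPM. Mmp28 did so in CTR with a ratio of 0.938, as CTR2 had 10.4 CPM and the others 7.22 to 7.42 CPM.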

How the results depend on the processing

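By genotype, 0 of the 32 genes passed the threshold under the other scalings, the other filters and limma-voom. DESeq2's likelihood ratio test without a further term also called 0 of the 32, and 22 of the 14598 genes tested. With the title number range as a term in edgeR, and with each library left out (0 to 0), 0 of the 32 passed. DESeq2's likelihood ratio test with the range as a term called 1 (Adamtsl4), and 47 of the 14598 genes tested. With the replicate number as a block there were 0 called, and 0 among all genes tested. Deviations of libraries with the same number correlated at 0.131, 0.176, 0.0844 and 0.0572. Libraries with different numbers were not compared, and those with the same number share a title number range. These values therefore cannot show whether the numbers pair the mice, and the main test did not use them as pairs. By title number no such block could be fitted. By title number, DESeq2's likelihood ratio test called 3 of the 32 (0 in edgeR) and 342 of the 14598 genes tested. It called 3 of the 42 other genes of the pathway (Htra3, Dcn and Lum, 0 in edgeR). Leaving out each library gave 0 to 1 of the 32, the 1 being Timp3 without cKO3, where 4 of all genes tested were called. The cause of these differences was not tested. Of 40 fold changes of named genes, 15 changed sign under at least 1 alternative, in 32 of 760 values, and none of the 15 belonged to a gene at an unadjusted p under 0.05 in that comparison. The 10 most abundant genes included 9 of the same genes with the longest transcript as length and 8 in CPM. Depth limits Adamts17, Mmp9 and Adamts3, with as few as 13, 25 and 28 counts, and each range held 2 libraries per genotype.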
